A study of Mus musculus with 18 samples.

Results

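The glutathione transferases outside the mu class comprised 10 genes here, namely Gsta1, Gsta3, Gsta4, Gstp1, Gstt1, Gstt2, Gstk1, Gsto1, Mgst1 and Mgst3. They were found through the accession that each array probe carries, and 9 of the 10 genes had a probe, among 18217 named genes on the array. Gstk1, the kappa-class enzyme of mitochondria and peroxisomes, had none under its RefSeq accession and gets no value. The 9 genes were read by 12 of the 41174 probes, since Gsta3, Gstp1 and Mgst1 had 2 probes each. All 12 probes passed the filter on dim probes that 30066 probes passed in all. RNA of brain tissue from male 129SV mice was hybridised to 18 one-colour Agilent arrays. The 6 groups of 3 arrays were cortex, hippocampus and brainstem of Nrf2 knockout (KO) mice and the same regions of wild-type (WT) mice, all kept without an imposed stress. How the gene was disrupted and the age of the mice are not given in the sources used here.

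Glutathione transferases join the thiol of glutathione to electrophilic compounds, which makes them soluble and ready for export, and several of them also reduce lipid peroxides. The alpha, pi, theta and omega classes are soluble enzymes, whereas Mgst1 and Mgst3 are small proteins of intracellular membranes. Nrf2, encoded by Nfe2l2, is a transcription factor that binds antioxidant response elements together with small Maf proteins, and glutathione transferase genes of several classes are among its targets in liver and intestine. In the brain, glutathione conjugation is carried out largely by glial cells and by cells at the blood-brain barrier.

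The promoters are shown because the knockout removes a factor that binds DNA. RefSeq (GRCm38.p6) gave a promoter for 8 of the 10 genes, 9 promoters in all, and Gsta4 and Gstt2 were not matched. The 250 bases before the start site were searched on both strands for the core of the antioxidant response element, TGACNNNGC, and for the NF-E2-type motif TGCTGANTCA. The second motif was added after the sequences had been read, and both motifs overlap where an NF-E2-type match continues as TGACNNNGC. The first motif was found in Gsta3 and in 1 of the 2 Mgst1 promoters, and 10.2% of the 32851 promoters of this length held it. The second was found in Gstp1, and 0.353% of the promoters held it. The 3 sequences, with the matches in capitals, lie at chr1:21240335-21240584 (plus strand) for Gsta3, chr6:138140277-138140526 (plus strand) for Mgst1 and chr19:4037913-4038162 (minus strand) for Gstp1. The matches begin at base -121 from the start site in Gsta3, at base -56 in Mgst1 and at base -74 in Gstp1. A match describes letters in this window and is no evidence of binding.
Gsta3: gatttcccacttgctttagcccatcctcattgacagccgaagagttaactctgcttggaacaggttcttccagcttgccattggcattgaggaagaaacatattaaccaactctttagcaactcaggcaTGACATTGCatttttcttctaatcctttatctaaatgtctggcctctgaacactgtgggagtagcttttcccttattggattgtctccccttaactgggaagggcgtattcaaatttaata
Mgst1: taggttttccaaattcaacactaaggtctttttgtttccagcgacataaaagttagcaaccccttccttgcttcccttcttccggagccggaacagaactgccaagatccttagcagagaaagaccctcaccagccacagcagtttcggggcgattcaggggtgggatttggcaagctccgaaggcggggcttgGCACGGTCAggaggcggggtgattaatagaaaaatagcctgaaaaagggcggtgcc
Gstp1: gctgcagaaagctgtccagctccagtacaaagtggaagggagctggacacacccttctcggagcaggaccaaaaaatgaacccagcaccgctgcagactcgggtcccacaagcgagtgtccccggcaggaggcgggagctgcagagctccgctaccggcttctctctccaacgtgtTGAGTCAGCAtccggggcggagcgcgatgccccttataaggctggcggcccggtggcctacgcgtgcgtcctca

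Each array had 63.7% to 73.2% of its spots well above background and 0 saturated spots. The level of a probe is log2 of its processed intensity minus the 75th percentile of the array, so that 0 is the 75th percentile. Levels of different probes cannot be set against each other. The knockout was visible in its own gene: probe A_51_P411271 of Nfe2l2 had levels of -8.39 to -3.62 on the 9 KO arrays, against 0.79 to 1.39 on the 9 WT arrays. Residual signal was well above background on the 3 KO hippocampus arrays (-3.62, -5.84 and -4.47) and on KO brainstem 3 (-4.92). Region markers followed the tissue labels: 9 brainstem markers averaged -2.40 to -2.0 on the brainstem arrays and -7.64 to -5.54 on the other arrays. These are whole-tissue RNAs, in which fewer cells of a type and less RNA per cell cannot be told apart.

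The first question was whether the glutathione transferases outside the mu class depend on Nrf2 in the unstressed brain. No member was called in any region, at an adjusted p under 0.05 in limma with Benjamini-Hochberg adjustment over all 30066 probes. The smallest adjusted p among the 12 probes was 0.99994 in cortex, 0.99984 in hippocampus and 0.99978 in brainstem. Calls were rare over all probes as well, at 0.0333% in cortex, 0.02% in hippocampus and 0.0299% in brainstem. At an unadjusted p under 0.05, limma gave 0 of the 12 probes in cortex, 1 in hippocampus and 1 in brainstem. It was Gstt1 in both of these regions. Of all 30066 probes, 602 had such a p in cortex, 378 in hippocampus and 847 in brainstem. The median difference of the 12 probes, KO minus WT, was -0.0016 in cortex, 0.086 in hippocampus and 0.015 in brainstem, beside -0.0014, 0.010 and -0.0035 over all probes. Averaged over the 3 regions, again 0 of the 12 probes were called, with a smallest adjusted p of 0.76865, while 0.0466% of all probes were. A difference of the knockout effect between regions was called for 0 of the 12 probes (limma F test, smallest adjusted p 0.99999). It was called for 0% of all probes. At an unadjusted p under 0.05, this test gave 0 of the 12 probes and 213 of all 30066 probes.

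The intervals give the size of the difference with its error. In each region, the 95% interval of the KO minus WT difference lay within -1 and 1 for 11 of the 12 probes, and Gsta1 was the exception. It lay within -0.5 and 0.5 for 6 probes in cortex, 5 in hippocampus and 8 in brainstem. With the replicate number, which pairs KO and WT arrays of a region, as a block, these counts were 8, 9 and 11, and 0 members were called (smallest adjusted p 0.86791, 0.99864 and 0.75345). The difference between arrays of 1 number had the same sign for all 3 numbers for 3 of the 12 probes in cortex, 3 in hippocampus and 2 in brainstem, beside 24.7%, 30.5% and 29% of all probes.

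By comparison, 2 of the 7 mu-class genes were called lower in the KO in each region. Gstm1 fell by 1.03 (KO cortex), 0.81 (KO hippocampus) and 1.01 (KO brainstem), each ± 0.088 (SE, n = 3 arrays per group, limma adjusted p = 6.87e-05, 0.00153 and 9.55e-05). No test set the members against the mu class.

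**Figure D1:**
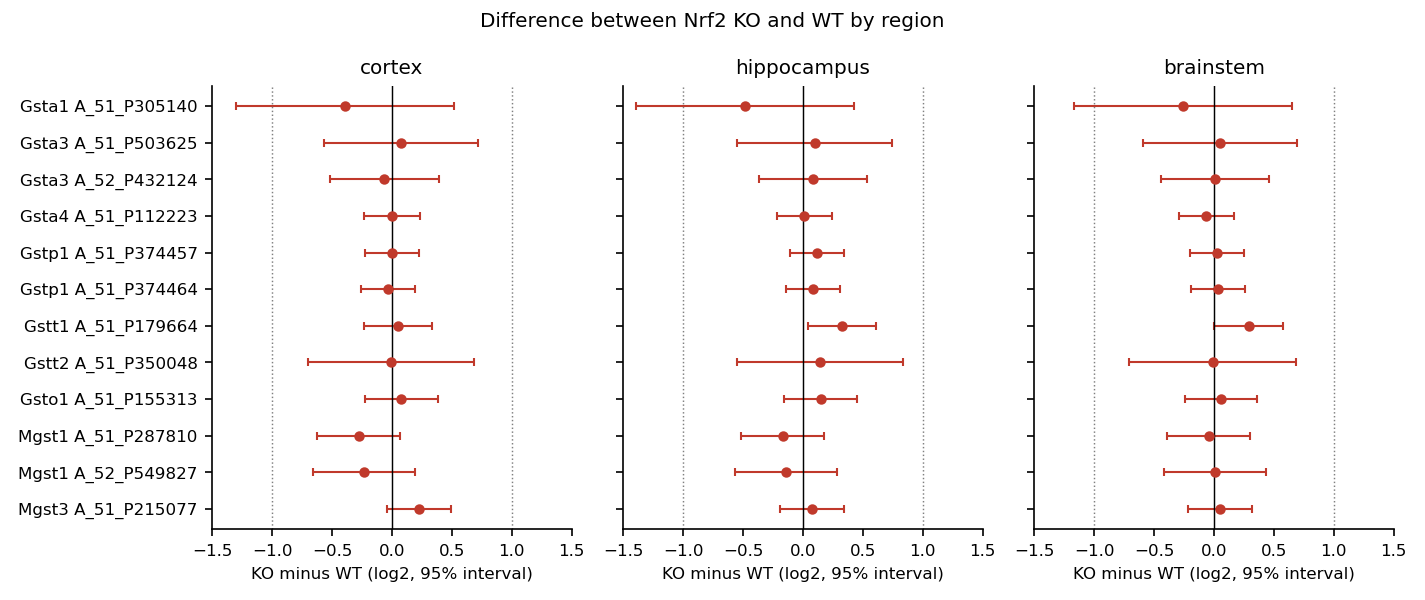
Difference in level between Nrf2 KO and WT (log2, x axis) for the 12 probes (y axis) in cortex, hippocampus and brainstem; points are limma estimates from 3 arrays per group, bars are 95% intervals and dotted lines mark -1 and 1. All intervals except that of Gsta1 stay between the dotted lines, and only Gstt1 in hippocampus and brainstem has an interval above 0, before adjustment.

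Gstt1, the theta-class enzyme known for acting on small halogenated hydrocarbons, came closest to a difference. In hippocampus its levels were -2.75, -2.71 and -2.93 in KO mice, against -3.05, -3.10 and -3.20 in WT mice. The 3 KO arrays all lay above the 3 WT arrays, as 1 of the 12 probes did in this region, where 8.01% of all probes had groups that did not overlap in one direction or the other. The difference was 0.33 (95% interval 0.039 to 0.61), with an unadjusted p of 0.0288. In brainstem, Gstt1 had -1.45, -1.34 and -1.74 in KO mice, against -1.83, -1.55 and -2.01 in WT mice, and the groups overlapped. That difference was 0.29 (0.0019 to 0.58), and in cortex it was 0.051 (-0.24 to 0.34). Within the slides, each of which held both genotypes, the difference was 0.30 and 0.34 in hippocampus, 0.30 and 0.27 in brainstem, and 0.12 and -0.080 in cortex. In cortex and brainstem 0 of the 12 probes had groups that did not overlap, beside 5.69% and 6.33% of all probes. With the replicate number as a block, the difference of Gstt1 was 0.33 ± 0.086 in hippocampus (SE, unadjusted p = 0.00484, limma adjusted p = 0.99864) and 0.29 ± 0.086 in brainstem (0.00923 and 0.75345). Averaged over the regions it was 0.22 ± 0.077 (SE), with the adjusted p of 0.76865 given above, and 0.22 ± 0.050 with the block (adjusted p = 0.28034). These averages treat the arrays of the regions as independent. If arrays of 1 number and genotype share a mouse, their standard errors may be too small.

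Gsta1, an alpha-class enzyme with peroxidase activity that is induced through Nrf2 in liver, was well above background on 17 of the 18 arrays. Its levels in cortex were -5.24, -5.92 and -5.14 in KO mice, against -4.15, -5.25 and -5.72 in WT mice. In hippocampus they were -4.72, -4.33 and -5.47 in KO mice, against -5.01, -4.16 and -3.91 in WT mice. The arrays of a group spread by up to 0.81 (SD, n = 3), and the groups overlapped in every region. In brainstem the levels were -5.71, -5.47 and -5.53 in KO mice, against -5.75, -4.57 and -5.61 in WT mice. The KO minus WT differences were -0.39 (cortex), -0.48 (hippocampus) and -0.26 (brainstem), each ± 0.43 (SE), and the 95% intervals reached -1.30, -1.39 and -1.17.

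Mgst1, a glutathione transferase and peroxidase of the endoplasmic reticulum and outer mitochondrial membrane, held the antioxidant response element core shown above. Its probe A_51_P287810 had levels of 0.16, 0.47 and 0.02 in KO cortex, against 0.34, 0.75 and 0.39 in WT cortex. The KO arrays were lower on average but overlapped the WT arrays, with a difference of -0.28 (95% interval -0.62 to 0.070). Within the numbers 1, 2 and 3 it was -0.18, -0.28 and -0.37, and with the number as a block the interval was -0.58 to 0.030. Its second probe, A_52_P549827, differed by -0.23 ± 0.20 (SE) in cortex. In hippocampus the 2 probes differed by -0.17 and -0.14, and in brainstem by -0.045 and 0.0078. Gsta3, which also held the core, had differences of 0.076 (cortex), 0.097 (hippocampus) and 0.051 (brainstem) with probe A_51_P503625, each ± 0.30 (SE). Probe A_52_P432124 gave -0.064, 0.085 and 0.0076, each ± 0.21 (SE), so that the probes differed in sign in cortex. Gstp1, the pi-class enzyme whose promoter held the NF-E2-type motif, had the smallest standard errors among the members. Its differences for the 2 probes lay between -0.029 and 0.12 over the 3 regions, each ± 0.11 (SE).

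None of the remaining members was called either. Gsta4, the alpha-class enzyme that conjugates the lipid peroxidation product hydroxynonenal, had KO minus WT differences of 0.0016 (cortex), 0.013 (hippocampus) and -0.063 (brainstem), each ± 0.11 (SE). For Gstt2, also of the theta class, the 3 differences in the same order were -0.0048, 0.14 and -0.012, each ± 0.32 (SE) and ± 0.084 with the replicate number as a block. Gsto1, the omega-class enzyme known as a thioltransferase and dehydroascorbate reductase, had differences of 0.079, 0.15 and 0.059, each ± 0.14 (SE). Mgst3, a microsomal enzyme with peroxidase activity, had differences of 0.23, 0.075 and 0.049, each ± 0.12 (SE). Its cortical levels were 3.09, 2.86 and 2.75 in KO mice, against 2.66, 2.75 and 2.60 in WT mice, with the lowest KO array just under the highest WT array. Within the numbers 1, 2 and 3 the cortical difference was 0.44, 0.11 and 0.14.

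Outside the mu class, no further gene tested from the lists of the pathway was called between the genotypes. Of 14 further glutathione transferase and related genes, 9 were tested and 0 were called in any of the 3 regions (Gsta2, Gstp2, Gstp3, Gstt4 and Gstcd were not tested). Of 26 genes of glutathione supply and conjugate handling, 24 were tested and 0 were called (Acy3 and Abcc2 were not tested). Their median differences were -0.017 (cortex), -0.0057 (hippocampus) and -0.038 (brainstem). Among marker genes, those of choroid plexus had a difference below 0 for 12 of 12 in cortex (median -0.70) and in hippocampus (median -1.17), and above 0 for 11 of 12 in brainstem (median 0.43), with 0 called. Their mean level in hippocampus ranged from -3.37 to 0.23 on KO arrays and from -3.58 to 0.77 on WT arrays, and F5 was not well above background on the WT brainstem arrays. Other marker lists were one-sided as well. In cortex, 12 of 12 endothelial and mural markers (median 0.18) and 10 of 10 of meninges and fibroblasts (0.16) were above 0. All 8 of ependyma and cilia were below 0 there (-0.15). In hippocampus, 10 of 11 markers of oligodendrocytes and myelin were below 0 (-0.18). The 3 tested erythrocyte markers were above 0 in every region. Again 0 were called. The part of the markers in the member values was not tested.

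**Figure D2:**
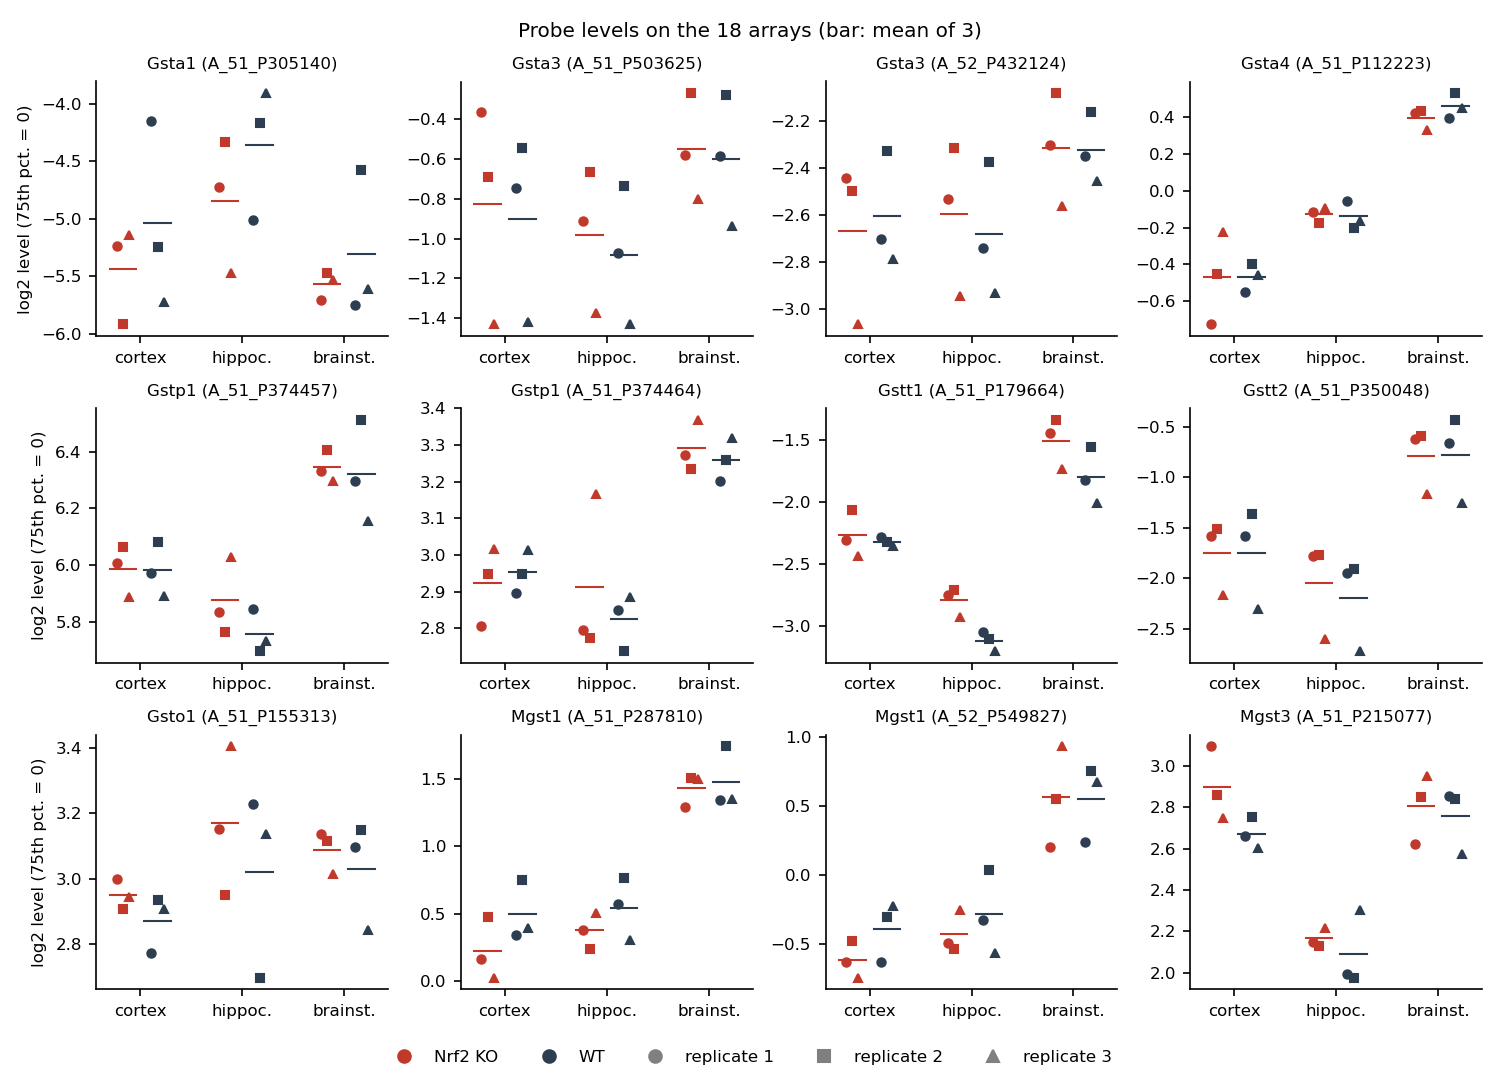
Level of each of the 12 probes (y axis, log2, 0 is the 75th percentile of the array) in cortex, hippocampus and brainstem (x axis), with Nrf2 KO arrays in red to the left of WT arrays in dark blue, symbols for the replicate number and bars for the mean of 3 arrays. KO and WT arrays overlap in all panels and regions except Gstt1 in hippocampus, while brainstem arrays lie above the others for Gsta4, Gstp1, Gstt1, Gstt2 and Mgst1.

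The second question was how the members are distributed over the brain. Within KO mice, 7 of the 12 probes were called higher in brainstem than in cortex and 0 lower, and within WT mice it was the same 7 probes. This is 58.3% of the member probes in either genotype. Of all probes, 35.3% were called in KO mice and 35.7% in WT mice, and 19.5% and 19.9% were called higher in brainstem. Leaving out 1 array gave 5 to 7 calls in KO mice and 4 to 6 in WT mice, so no removal kept the 7 in WT mice. With 1 probe per gene, 5 of 9 members were called in either genotype, beside 8150 (KO) and 8191 (WT) of 22926 probes. Brainstem was called higher than hippocampus for 8 of the 12 probes (66.7%) in KO mice and for the same 8 in WT mice. Of all probes, 39.5% and 40.5% were called, and 21.3% and 22.4% were called higher. With 1 probe per gene, 6 of 9 members were called in either genotype, beside 9277 (KO) and 9505 (WT) of 22926 probes. The median difference, brainstem minus cortex, was 0.36 in KO mice and 0.32 in WT mice, beside 0.040 and 0.048 over all probes. Brainstem minus hippocampus gave 0.49 in KO mice and 0.58 in WT mice, beside 0.0053 and 0.016 over all probes. Hippocampus and cortex differed less. In KO mice 3 probes were called, Gsta4 higher and Gstt1 and Mgst3 lower in hippocampus (25% of the members, beside 15.3% of all probes called, 6.97% higher and 8.37% lower). In WT mice 2 probes were called, Gstt1 and Mgst3, both lower in hippocampus (16.7% of the members, beside 16.4% of all probes called and 9.24% lower), so the share of members was near that of all probes.

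Gstt1 had the widest range over the 6 group means, 1.61. Its levels in brainstem and hippocampus are given above, and in cortex they were -2.31, -2.06 and -2.44 in KO mice, against -2.28, -2.33 and -2.36 in WT mice. The order was brainstem, cortex, hippocampus in both genotypes, with no overlap between regions. Brainstem exceeded hippocampus by 1.29 ± 0.13 in KO mice and 1.32 ± 0.13 in WT mice (SE, limma adjusted p = 2.54e-06 and 1.79e-06). Brainstem exceeded cortex by 0.76 in KO mice and 0.53 in WT mice (adjusted p = 0.000423 and 0.00642). Hippocampus minus cortex was -0.52 ± 0.13 in KO mice (adjusted p = 0.0153) and -0.80 ± 0.13 in WT mice (0.000823). The KO call against cortex was lost with normexp background correction (-0.35, adjusted p = 0.0644), when only these 2 groups were fitted (0.0756), and without cortex KO 2 (0.0755) or hippocampus KO 3 (0.0689).

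Gstt2 had levels of -0.62, -0.60 and -1.17 in KO brainstem, against -1.58, -1.51 and -2.16 in KO cortex and -1.78, -1.77 and -2.60 in KO hippocampus. In WT mice the levels were -0.66, -0.43 and -1.26 in brainstem, against -1.58, -1.36 and -2.30 in cortex and -1.94, -1.91 and -2.72 in hippocampus. Brainstem arrays lay above those of the other regions in both genotypes, and the array numbered 3 was the lowest of every group. Brainstem exceeded hippocampus by 1.26 ± 0.32 in KO mice and 1.41 ± 0.32 in WT mice (SE, limma adjusted p = 0.00639 and 0.00282). It exceeded cortex by 0.96 ± 0.32 in KO mice and 0.97 ± 0.32 in WT mice (adjusted p = 0.0319 and 0.0305). Both calls against cortex were lost with the slide as a random block (adjusted p = 0.0586 and 0.0564). They were also lost without cortex array 3 (0.75 with adjusted p = 0.127 in KO, 0.69 with 0.145 in WT) and without brainstem array 1 or 2 (adjusted p = 0.0950 and 0.0995 in KO, 0.0890 and 0.120 in WT). With the replicate number as a block, hippocampus was called below cortex as well, by -0.30 in KO mice (adjusted p = 0.0224) and -0.44 in WT mice (0.00232). For comparisons of regions, this block assumes that a number has the same effect in all regions and both genotypes.

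Mgst1 was higher in brainstem with both probes. Probe A_51_P287810 had 1.29, 1.51 and 1.5 in KO brainstem, against the 0.16, 0.47 and 0.02 of KO cortex and 0.38, 0.24 and 0.51 in KO hippocampus. In WT mice it had 1.34, 1.74 and 1.35 in brainstem, against 0.34, 0.75 and 0.39 in cortex and 0.57, 0.76 and 0.30 in hippocampus. Brainstem stood apart, while cortex and hippocampus overlapped. The excess over cortex was 1.21 ± 0.16 in KO mice and 0.98 ± 0.16 in WT mice (SE, limma adjusted p = 3.7e-05 and 0.000244). Probe A_52_P549827 gave 1.18 ± 0.20 in KO mice and 0.94 ± 0.20 in WT mice (adjusted p = 0.000307 and 0.0018). Over hippocampus, the 2 probes gave 1.06 and 0.99 in KO mice and 0.93 and 0.84 in WT mice, all called.

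Gsta4 was ordered brainstem, hippocampus, cortex. It had 0.42, 0.43 and 0.33 in KO brainstem, against -0.11, -0.17 and -0.09 in KO hippocampus and -0.73, -0.45 and -0.22 in KO cortex. In WT mice it had 0.40, 0.53 and 0.45 in brainstem, against -0.06, -0.20 and -0.16 in hippocampus and -0.55, -0.40 and -0.46 in cortex. No 2 regions overlapped within a genotype. Brainstem exceeded cortex by 0.86 ± 0.11 in KO mice and 0.93 ± 0.11 in WT mice (SE, limma adjusted p = 2.1e-05 and 1.01e-05). Hippocampus minus cortex was 0.34 ± 0.11 in KO mice (adjusted p = 0.0467), against 0.33 ± 0.11 in WT mice (0.0517), so the values on either side of the threshold were almost equal. The KO call was lost without any 1 of the hippocampus KO arrays, cortex KO 1 or cortex KO 2 (0.21 to 0.36, adjusted p = 0.0727 to 0.167), and the WT call was gained with the replicate number as a block (0.0407).

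Mgst3 was called lower in hippocampus than in both other regions. It had 2.15, 2.13 and 2.22 in KO hippocampus, against the 3.09, 2.86 and 2.75 of KO cortex, and 1.99, 1.98 and 2.30 in WT hippocampus, against 2.66, 2.75 and 2.60 in WT cortex. The difference was -0.73 ± 0.12 in KO mice and -0.58 ± 0.12 in WT mice (SE, limma adjusted p = 0.000939 and 0.00514). Brainstem levels were 2.62, 2.85 and 2.95 in KO mice, against 2.85, 2.84 and 2.57 in WT mice, and they overlapped the cortex of the same genotype. Brainstem minus cortex was -0.094 (95% interval -0.36 to 0.17) in KO mice and 0.085 (-0.18 to 0.35) in WT mice.

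Gstp1 moved least among the called members. Probe A_51_P374457 ranged from 6.30 to 6.40 in KO brainstem, against 5.89 to 6.06 in KO cortex, and from 6.16 to 6.51 in WT brainstem, against 5.89 to 6.08 in WT cortex. The groups did not overlap, and the excess of brainstem over cortex was 0.36 ± 0.11 in KO mice and 0.34 ± 0.11 in WT mice (SE, limma adjusted p = 0.0155 and 0.0206). The second probe, A_51_P374464, gave 0.37 and 0.31 (adjusted p = 0.0133 and 0.0341). The WT call of A_51_P374457 was lost without WT cortex 1 or 3 or WT brainstem 2 (adjusted p = 0.0555 to 0.110), and its KO call without KO cortex 3 or KO brainstem 2 (0.0610 and 0.0557). The WT call of A_51_P374464 was lost without any 1 of the 6 arrays compared (0.0509 to 0.105), and its KO call without KO cortex 1 (0.0516). Over hippocampus, the excess was 0.47 and 0.38 in KO mice and 0.56 and 0.44 in WT mice for the 2 probes, all called. In KO mice the call of A_51_P374464 was lost without hippocampus KO 1 (0.0510) or 2 (0.0516).

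Gsto1 was called in no comparison of regions. It ranged from 2.95 to 3.4 in KO hippocampus, 3.02 to 3.14 in KO brainstem and 2.91 to 3.0 in KO cortex. The WT ranges were 2.70 to 3.23 in hippocampus, 2.84 to 3.15 in brainstem and 2.77 to 2.94 in cortex. Its differences between regions lay between -0.080 and 0.22, each ± 0.14 (SE). Gsta1 was likewise called in none, with hippocampus minus cortex at 0.59 ± 0.43 in KO mice and 0.68 ± 0.43 in WT mice (SE). Its brainstem minus hippocampus difference of -0.95 in WT mice (adjusted p = 0.0887) was called without hippocampus WT 1 (-1.28, adjusted p = 0.0424) or brainstem WT 2 (-1.32, 0.0317). Gsta3, the alpha-class enzyme known in mouse liver for detoxifying aflatoxin epoxide, was called in none by the fit without a block. With the replicate number as a block, both probes were called higher in brainstem than in hippocampus, by 0.43 and 0.28 in KO mice (adjusted p = 0.0187 and 0.0373) and by 0.48 and 0.36 in WT mice (0.0109 and 0.0113). Probe A_52_P432124 was then also higher in brainstem than in cortex, by 0.36 in KO mice (0.0139) and 0.28 in WT mice (0.0402).

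**Figure D3:**
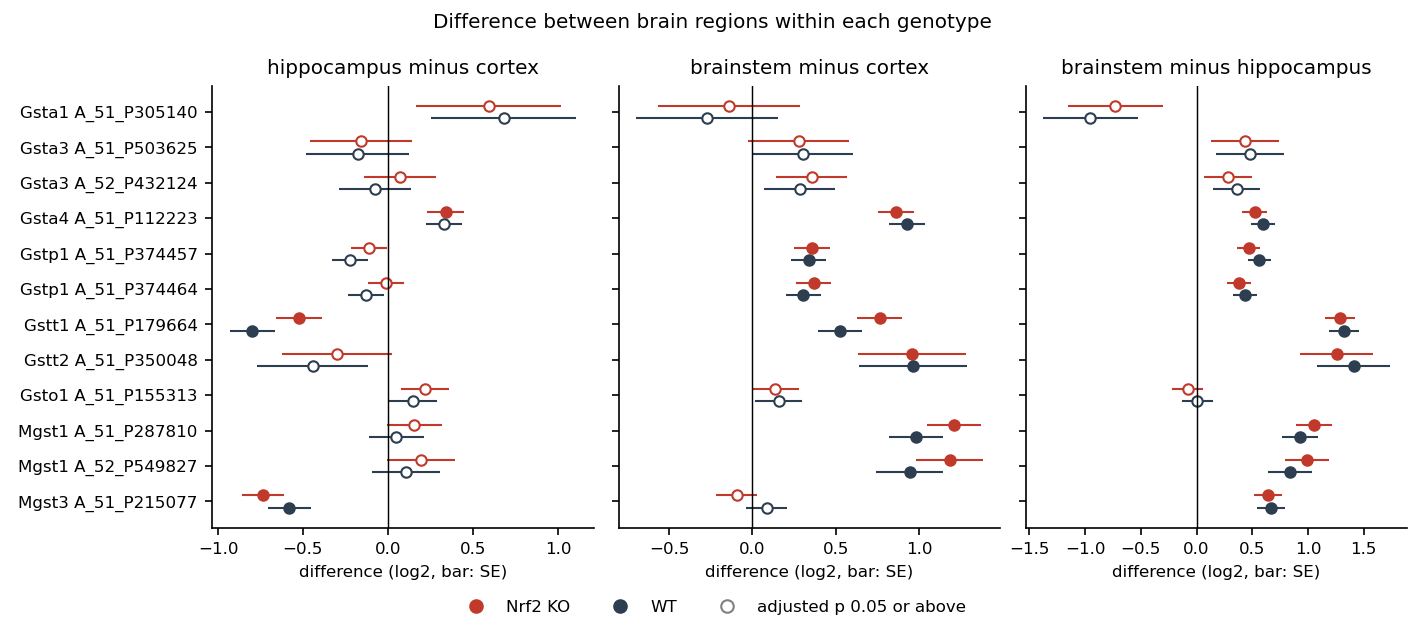
Difference in level between regions (log2, x axis) for the 12 probes (y axis), within Nrf2 KO mice (red, upper of each pair) and WT mice (dark blue, lower); bars are standard errors and open points have an adjusted p of 0.05 or above. The red and the blue point of a probe lie on the same side of 0 wherever both are filled, and the filled points of both brainstem panels are all above 0.

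Markers of several cell types also differed between brainstem and the other regions. All 11 tested markers of oligodendrocytes and myelin were called higher in brainstem than in cortex, with a median of 1.31 in KO mice and 1.16 in WT mice. Their mean level was 3.78 to 3.91 on KO brainstem arrays, against 2.43 to 2.57 on KO cortex and 2.01 to 2.90 on KO hippocampus arrays. It was 3.68 to 3.83 on WT brainstem arrays, against 2.37 to 2.49 on WT cortex and 2.46 to 2.75 on WT hippocampus arrays. Of 12 astrocyte markers, 6 were called higher and 2 lower in KO brainstem than in KO cortex, and 7 higher and 2 lower in WT mice. Of 12 microglia markers, 6 were called lower and 0 higher in brainstem than in cortex in either genotype. Of 10 neuron markers, 3 were called higher and 3 lower in brainstem than in cortex in either genotype. Of 8 markers of ependyma and cilia, 6 were called higher and 0 lower in brainstem than in cortex in KO mice (median 1.03), and 5 and 0 in WT mice (median 0.81). Of 12 endothelial and mural markers, 0 were called higher in KO mice and 3 in WT mice, and of 10 markers of meninges and fibroblasts, 2 and 3, with 0 lower in either list. Against hippocampus, 11 (KO) and 10 (WT) markers of oligodendrocytes and myelin were called higher in brainstem, and 1 and 2 of ependyma and cilia. Of astrocyte markers, 7 were higher and 2 lower in either genotype. Of microglia markers, 6 and 7 were lower and 0 higher. Of neuron markers, 4 and 6 were higher and 3 lower. Endothelial and mural markers had 3 and 5 higher. Meninges and fibroblasts had 6 higher in either genotype, with 1 lower in KO mice. None of these markers was below background on all arrays of a group. Their part in the member differences was not tested. All cortex arrays lay on slides of their own, so that cortex and slide cannot be told apart. A random block for the slide does not separate them either. Brainstem and hippocampus shared only slide 2, which held the hippocampal arrays numbered 1 and the brainstem arrays numbered 3. With the slide as a random block, 2 further calls were lost beside those of Gstt2. These were Gstp1 A_51_P374464 in WT brainstem against cortex (0.32, adjusted p = 0.0638) and Gsta4 in KO hippocampus against cortex (0.34, 0.0911).

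Some further genes of the pathway were called between brainstem and cortex. Among the further glutathione transferases, Gstt3, of the theta class, exceeded cortex by 1.84 ± 0.20 in KO mice and 1.71 ± 0.20 in WT mice (SE, limma adjusted p = 4.93e-06 and 9.98e-06). Mgst2, a microsomal enzyme that can make leukotriene C4, exceeded it by 1.60 ± 0.29 in KO mice and 1.5 ± 0.29 in WT mice. Ltc4s, leukotriene C4 synthase, was the 1 gene called lower, by -0.96 and -1.06. In all, 2 of the 9 genes were called higher and 1 lower in KO mice, and 3 higher and 1 lower in WT mice, beside 19.5% of all probes called higher in KO mice and 19.9% in WT mice, so the KO share was near that of all probes. Of the 24 tested genes of glutathione supply and conjugate handling, 8 were called higher and 0 lower in brainstem than in cortex in either genotype, and 16 were not called. They included all 3 genes of glutathione synthesis: Gclc by 0.65 in KO and 0.68 in WT mice, Gclm by 0.94 and 0.97, and Gss by 1.15 and 1.05.

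Over the 6 group means, each centred on its own mean, the nearest named genes were sought among 13330 genes for the 4 member probes whose means spanned at least 1 log2 unit and that were well above background on all 18 arrays. Gsta1, with a range of 1.21, was not compared because it missed the second condition. For Gstt1 they were Slc32a1, the vesicular transporter of inhibitory neurotransmitters, at a root mean square distance of 0.079 log2 units, Plac9a at 0.083 and Gabrg1, a GABA-A receptor subunit, at 0.083. For Gstt2 they were Slc25a2 at 0.045, Snx8 at 0.049 and Sema6a at 0.057. Luc7l was among the 3 nearest genes for both Mgst1 probes, at 0.040 and 0.046. These distances rest on 6 means from the same arrays and are a description.

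A further difference among the arrays followed the replicate number rather than the genotype. The number is the one in the labels, which number the arrays of each group from 1 to 3. Whether arrays of a number in different regions come from 1 mouse is not stated. In cortex and brainstem the arrays numbered 3 lay on another slide than those numbered 1 and 2. Number 3 and slide cannot be told apart in those regions. Gstt2 was lowest on the array numbered 3 in all 6 groups, as the levels above show. On slide 3, which held the hippocampal arrays numbered 2 and 3, Gstt2 had -1.77 and -2.60 in KO mice, against -1.91 and -2.72 in WT mice. Gsta3 probe A_51_P503625 had -0.36, -0.69 and -1.43 in KO cortex, against -0.74, -0.54 and -1.42 in WT cortex, for numbers 1, 2 and 3. In brainstem it had -0.58, -0.27 and -0.80 in KO mice, against -0.58, -0.28 and -0.94 in WT mice. Number 3 was the lowest in all 6 groups for this probe, for A_52_P432124 and for Gstt1, and 8.09% of all probes had this order. Gstp1 A_51_P374464 went the other way, with number 3 the highest in all 6 groups, as for 4.29% of all probes. Its number 3 exceeded the mean of the others by 0.15 ± 0.050 (SE). The number was not called in a limma F test over the 3 numbers (adjusted p = 0.105).

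The number was tested over all 18 arrays beside the group, a test added after the values had been seen. It called 4 of the 12 member probes, beside 21.1% of all probes (limma F test, adjusted p under 0.05). Adjusted p-values printed beside a difference of number 3 are those of this F test, which also takes in number 2 against number 1. The arrays numbered 3 were below the mean of the others by -0.72 ± 0.051 for Gstt2 (SE, F test adjusted p = 0.000292). Gstt2 had rank 2 by the p of the F test among all 30066 probes. The difference was -0.67 within KO mice and -0.78 within WT mice. For Gsta3 it was -0.61 ± 0.083 (adjusted p = 0.00158) and -0.39 ± 0.063 (0.00238) with the 2 probes, and for Gstt1 -0.21 ± 0.055 (0.0279). Mgst2 had a difference of -0.49 ± 0.086 (0.00236), whereas Mgst3 had a difference of 0.00065 ± 0.079. Gstt2 and both Gsta3 probes were called again without the cortex, the hippocampus or the brainstem arrays, where 3.67%, 14.5% and 4.08% of all probes were called, and Gstt1 was not. The call of Gstt1 was also lost with quantile normalization. If arrays of 1 number and genotype share a mouse, the 6 arrays numbered 3 stand for 2 mice and these p-values are too small. Without those 6 arrays, 0 members were called between the genotypes in any region, and the counts between regions stayed as given except for 1 more in WT hippocampus against cortex (Gstt2, -0.46, adjusted p = 0.0240).

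**Figure D4:**
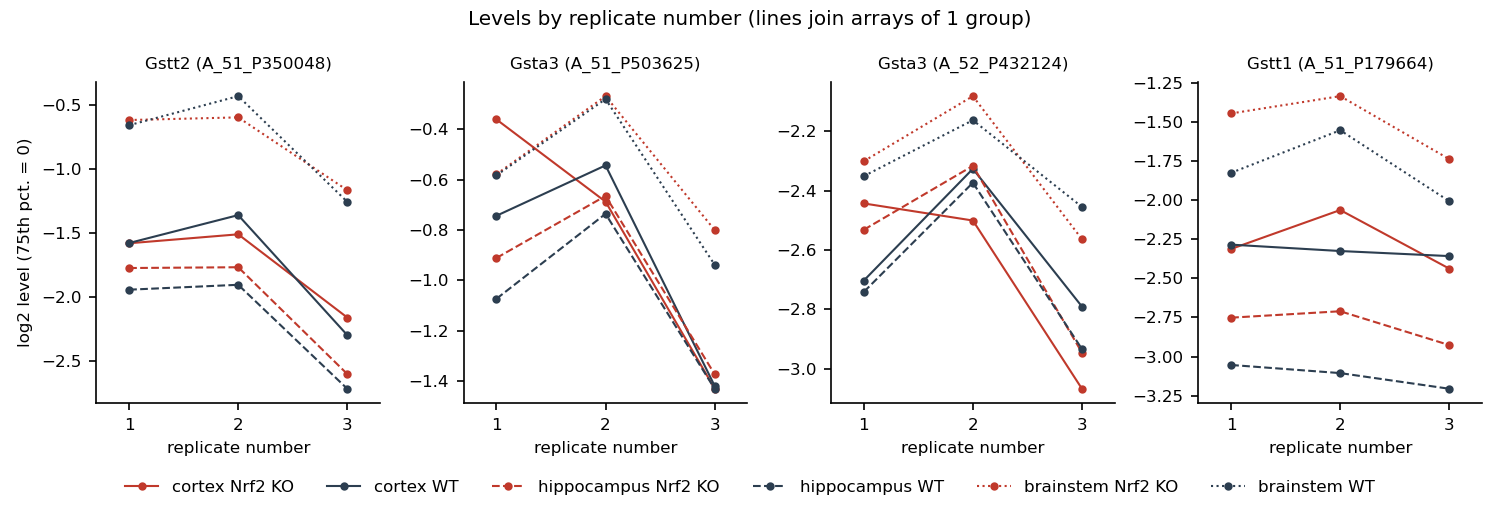
Level (y axis, log2, 0 is the 75th percentile of the array) of Gstt2, both Gsta3 probes and Gstt1 by the replicate number of the array (x axis), with lines joining the 3 arrays of a group, red for Nrf2 KO and dark blue for WT, and 1 line style per region. In every panel the array numbered 3 is the lowest of its group in all 6 groups; the numbers are names and have no order.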

How the data were processed

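Total RNA was labelled with Cy3 and hybridised to Agilent arrays of 1 colour, and images were read with Agilent Feature Extraction 10.7.3.1, per the file headers. The deposited intensity of a spot is the processed signal of that program, per the file headers. Its background steps are not given in the sources used here. Outlier spots were left out, spots of a probe were averaged, and each array's 75th percentile was taken off the log2 of the authors' intensity. A probe was tested if 1 group or more had it well above background on each of its 3 arrays (30066 of 41174). Accessions were matched to RefSeq, giving 26690 probes 1 symbol, 14484 none and 0 several. Probe sequences were not used here, so signal from near-identical copies (Gsta1 and Gsta2, Gstp1 and Gstp2) cannot be told apart. The deposited table held the same intensity values, but 7 of its 18 columns held those of another array, so it served only as an alternative, for the other 11. The region markers and Nfe2l2 followed the labels of the scanner files.

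limma 3.58.1 (R 4.3.3) fitted 1 mean per group over 18 arrays (12 residual and 2.48 prior degrees of freedom), with two-sided tests in 11 comparisons and Benjamini-Hochberg adjustment over all probes. The number of arrays limits the precision. The fit was tested on simulated data. Alternatives were normexp background correction (offset 50), quantile normalization, other filters, 1 probe per gene, slide or replicate number as a block, trend and robust moderation, other sets of arrays, and leaving out each array. Normexp was run on the median signal of a spot, since the mean signal that had been planned was not in the columns used. KO and WT arrays of 1 number deviated together in every region (correlations of 0.243 to 0.632 over probes), so the number was taken to pair them. The highest correlation of a KO array with a WT array of another number was -0.395 to 0.22. Arrays of a pair always shared a slide, and some slides held 2 pairs of a region. For hippocampus 2 and 3 (slide 3), the pairs correlated at 0.263 and 0.243, against at most 0.0216 and 0.00396 with another number. For cortex 1 and 2 (slide 4) it was 0.255 and 0.397, against 0.216 and 0.133. For brainstem 1 and 2 (slide 1) it was 0.363 and 0.431, against 0.145 and 0.22. The other pairs were alone of their region on a slide. The source of the pairing was not tested. Between regions of a genotype the labels use the same numbers, and the correlations of arrays of 1 number were -0.0992 to 0.711. In comparisons of genotypes, the replicate block was the number within each region. In comparisons of regions, it was 1 effect per number, shared by all 18 arrays. Where nothing says that samples came from separate animals, p-values measure only the spread between them. The members, the gene lists and the marker lists were chosen with earlier results of these data known. Text names every member probe, Nfe2l2 as a check, and lists by their counts, with examples among the called genes chosen after their values were seen. Differences within a number were computed after the data had been seen.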

Additional observations from a re-analysis of the deposited data

How the results depend on the processing

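With the replicate number as a block (replicate block), 4 member probes were called between WT hippocampus and WT cortex in place of 2. The added ones were Gsta4 and Gstt2, and 7004 of all probes were called in place of 4917. When only the groups compared were fitted, 1 was called between KO hippocampus and KO cortex in place of 3. Leaving out 1 array gave 1 to 3 calls in KO hippocampus against cortex and 2 in WT hippocampus against cortex. It gave 5 to 7 in KO brainstem against cortex and 4 to 6 in WT brainstem against cortex. In the last comparison, no removal kept the 7 calls of the fit of all arrays. There 8606 to 9973 of all probes were called, in place of 10723. Against hippocampus, brainstem had 7 to 8 calls in KO mice and 8 to 9 in WT mice. For knockout against wild type, 0 members were called under every alternative run, the replicate block included. Over single probes, 27 calls were lost and 2 gained among 1080 results without 1 array, 16 were lost and 15 gained among 1300 results under other settings, and 0 turned their direction. Over all probes, calls between KO and WT numbered 10 in cortex, 6 in hippocampus and 9 in brainstem, against 6, 1 and 3 when only the groups compared were fitted. In hippocampus they numbered 3 with the replicate block and 2 without the arrays numbered 3. With probes well above background on all arrays they numbered 6 in cortex and 5 in brainstem, and 9 in place of 14 for the mean of the regions. Without brainstem KO 2 they numbered 16 in brainstem. Between KO brainstem and KO cortex, 10604 probes were called, against 5838 when only these groups were fitted. Between KO hippocampus and KO cortex it was 4613, against 2533 in that fit and 3027 without hippocampus KO 1. Between WT hippocampus and WT cortex it was 4917, against 3249 without cortex WT 1 and 3026 without hippocampus WT 1. The test of the replicate number called 6349 probes, 1102 without the cortex arrays and 1228 without the brainstem arrays. The deposited table gave no hippocampal comparison. The cause of these changes was not tested. Gsta1 was not well above background on 1 of the 18 arrays.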
